A study of Mus musculus with 35 samples.

Results

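Skeletal muscle genes were followed in brown adipose tissue (BAT). The group is a fixed list of 50 genes that code for parts of the skeletal muscle fibre: the thick and thin filaments, the Z-disc and M-band, the membranes that release and take up calcium, and the enzymes and oxygen store that supply energy. No expression value entered the list, but the list was drawn up with earlier results of these libraries known. Of the 50 genes, 35 were among the 10731 genes counted at 4 weeks and 49 were among the 13233 named genes counted at 21 weeks. Sln, which codes for a small regulator of the calcium pump, was not analysed here, and Myh7, Myh2, Myl2, Mybpc1, Mybpc2, Myot, Myoz1, Tnni1, Ryr1, Casq1, Cacna1s, Trdn, Ckmt2 and Scn4b were analysed at 21 weeks only.

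The study compared BAT of mice lacking both Suv420h enzymes, which methylate lysine 20 of histone H4 (double knockout, here KO), with BAT of control mice. At 4 weeks of age, on normal diet, there were 6 KO libraries (replicate 1 labelled male, replicates 2 to 6 female) and 9 control libraries (replicates 1, 4, 5 and 6 labelled male, replicates 2, 3, 7, 8 and 9 female). At 21 weeks all mice were labelled female and there were 4 groups of 5 libraries: KO and control after 14 weeks on a high fat diet (HFD, 45 kJ% fat), and KO and control on normal diet (ND). Total RNA was purified on spin columns and sequenced from the 3′ end of polyadenylated transcripts, 1 tag for each transcript. Levels are therefore given as CPM, counts scaled to a common library total, with no correction for transcript length, and CPM values of different genes can be set side by side. The labels name neither the fat depot nor the promoter and cell type in which the enzymes were deleted, and nothing says that the replicates are separate animals, so p-values measure the spread between these samples.

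A muscle fibre contracts when myosin thick filaments pull on actin thin filaments within the sarcomere, after calcium leaves the sarcoplasmic reticulum and binds troponin. Fast and slow fibres build these parts from different genes: myosin heavy chains Myh1, Myh2 and Myh4 with fast light chains and troponins in fast fibres, and Myh7 with slow light chains and troponins in slow fibres. Interscapular brown fat lies against muscles of the back, and brown adipocytes and skeletal muscle share embryonic progenitors.

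The libraries held 3069035 to 8140213 counts at 4 weeks and 2398807 to 7693388 counts at 21 weeks. Ucp1, the uncoupling protein that defines brown adipocytes, was present in all of them, at 2678 to 16590 CPM. Suv420h2 at 21 weeks was 4.38 to 16.2 CPM in KO HFD libraries, against 6.73 to 27.8 CPM in control HFD libraries, and 10.5 to 22.4 CPM in KO ND libraries, against 28.9 to 75.1 CPM in control ND libraries. Suv420h1 ranged over 29.1 to 57.3 CPM in the KO and 21.8 to 61.2 CPM in the control libraries of that age, so its 3′ tags did not separate the genotypes; whether the deleted part of the gene holds the tag is not given. Xist went against the labelled sex in 1 KO library (replicate 2) and 1 control library (replicate 6) at 4 weeks. In the 4-week count sheet, columns 1 to 6 (KO replicates 1 and 2, control replicates 1, 4, 5 and 6) and columns 7 to 15 (the remaining libraries) nearly coincide with labelled sex, and those divisions cannot be told apart.

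The share of all counts that fell on the skeletal muscle genes differed far more between single libraries than between most groups. At 21 weeks it was 0.0329%, 0.0340%, 0.0266%, 0.0228% and 0.0264% in KO HFD libraries 1 to 5, against 0.0212%, 0.0240%, 0.638%, 0.0340% and 0.0314% in control HFD libraries 1 to 5. On normal diet it was 0.0840%, 0.0505%, 0.0944%, 0.337% and 0.0250% in KO ND libraries 1 to 5, against 0.0465%, 5.67%, 1.03%, 2.47% and 0.260% in control ND libraries 1 to 5. Control ND libraries 2, 3 and 4 and control HFD library 3 therefore stood above every KO library of that age, whereas control ND library 1 lay below 4 of the 5 KO ND libraries. The means were 0.0285% ± 0.00476 in KO HFD libraries, 0.150% ± 0.273 in control HFD libraries, 0.118% ± 0.125 in KO ND libraries and 1.90% ± 2.31 in control ND libraries (SD, n = 5 each). Without library 3, the control HFD mean was 0.0277%.

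At 4 weeks, where 35 of the genes were counted, the share had a lowest, median and highest value of 0.0273%, 0.0657% and 0.362% over the 6 KO libraries and 0.0290%, 0.0571% and 0.391% over the 9 control libraries. The means were 0.115% ± 0.128 (SD, n = 6) in KO and 0.148% ± 0.146 (SD, n = 9) in control libraries, and the groups overlapped over nearly their whole range. KO library 3 (0.362%) and control libraries 8 (0.391%), 1 (0.332%) and 9 (0.284%) were the high ones. Bulk tissue cannot tell fewer muscle cells from less muscle RNA per cell, and no score over the list was tested because its genes were chosen with results known.

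**Figure D1:**
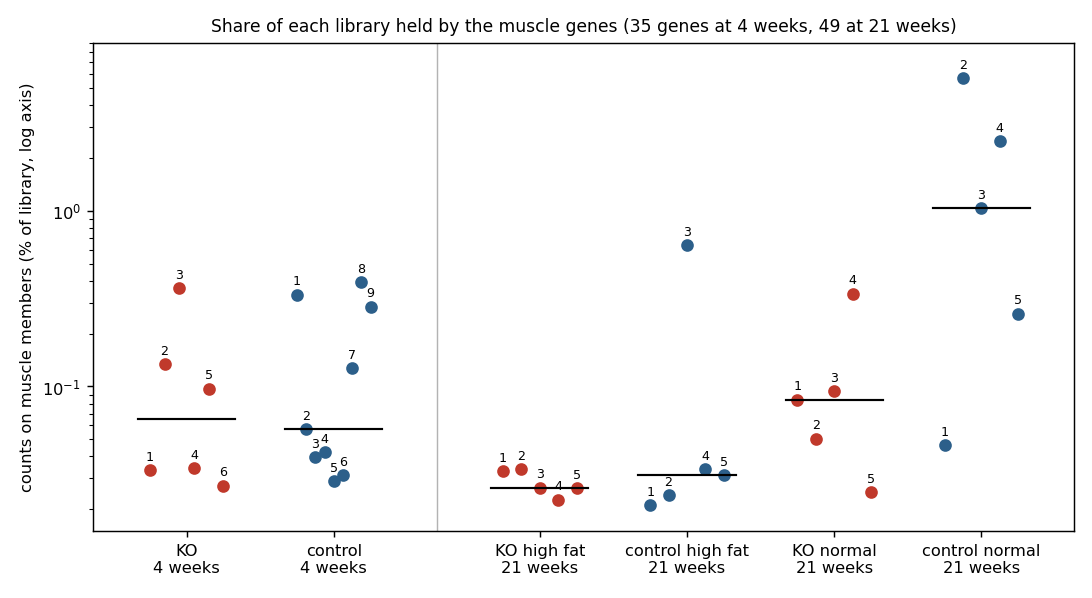
Share of each library's counts held by the skeletal muscle genes (y axis, percent, log scale), 1 point per library and a bar at the group median. The control ND group runs over 0.0465% to 5.67%, while the KO HFD group stays between 0.0228% and 0.0340%.

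Single libraries carried most of the signal. At 21 weeks control ND library 2 had the highest CPM of all 20 libraries for 48 of the 49 genes, and control ND library 4 had it for the remaining one, Atp2a1, the fast-fibre calcium pump. Control ND library 2 was among the 3 highest libraries for 49 genes, control ND libraries 3 and 4 for 46 each, and control HFD library 3 for 6. At 4 weeks the highest library was control library 8 for 14 genes, control library 1 for 11, KO library 3 for 7, control library 9 for 2 and KO library 5 for 1 of the 35.

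By group median, 32 of the 49 genes stood below 1 CPM in KO HFD libraries and 31 in control HFD libraries, against 5 in KO ND and 0 in control ND libraries. All 49 had a median of at least 10 CPM in control ND libraries, compared with 18 in KO ND, 5 in control HFD and 4 in KO HFD libraries. Myot, Myoz1, Mybpc1, Mybpc2, Ckmt2 and Pgam2 had no count in any of the 5 KO HFD libraries. In those libraries 3 counts, the limit that a count of 0 allows, correspond to 0.397 to 0.522 CPM, a figure for counting error only.

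A few of the genes kept a level where the rest were near 0. Mb (myoglobin), Des (desmin, an intermediate filament also made in smooth muscle) and Tpm1 (tropomyosin, also made outside muscle) together held 70.1% to 80.5% of the list's counts in KO HFD libraries and 67.2% to 74.1% in control HFD libraries 1, 2, 4 and 5. In control HFD library 3 the leading genes were Acta1 (skeletal α-actin), Tnnc2 and Myh4, which together held 40.05% of the list's counts. Acta1 also led in control ND libraries 2 (24.9%), 3 (20.2%) and 5 (14.5%) and in KO ND library 4 (15.6%), whereas the fast troponin C gene Tnnc2 led in control ND library 4 (12.9%).

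**Figure D2:**
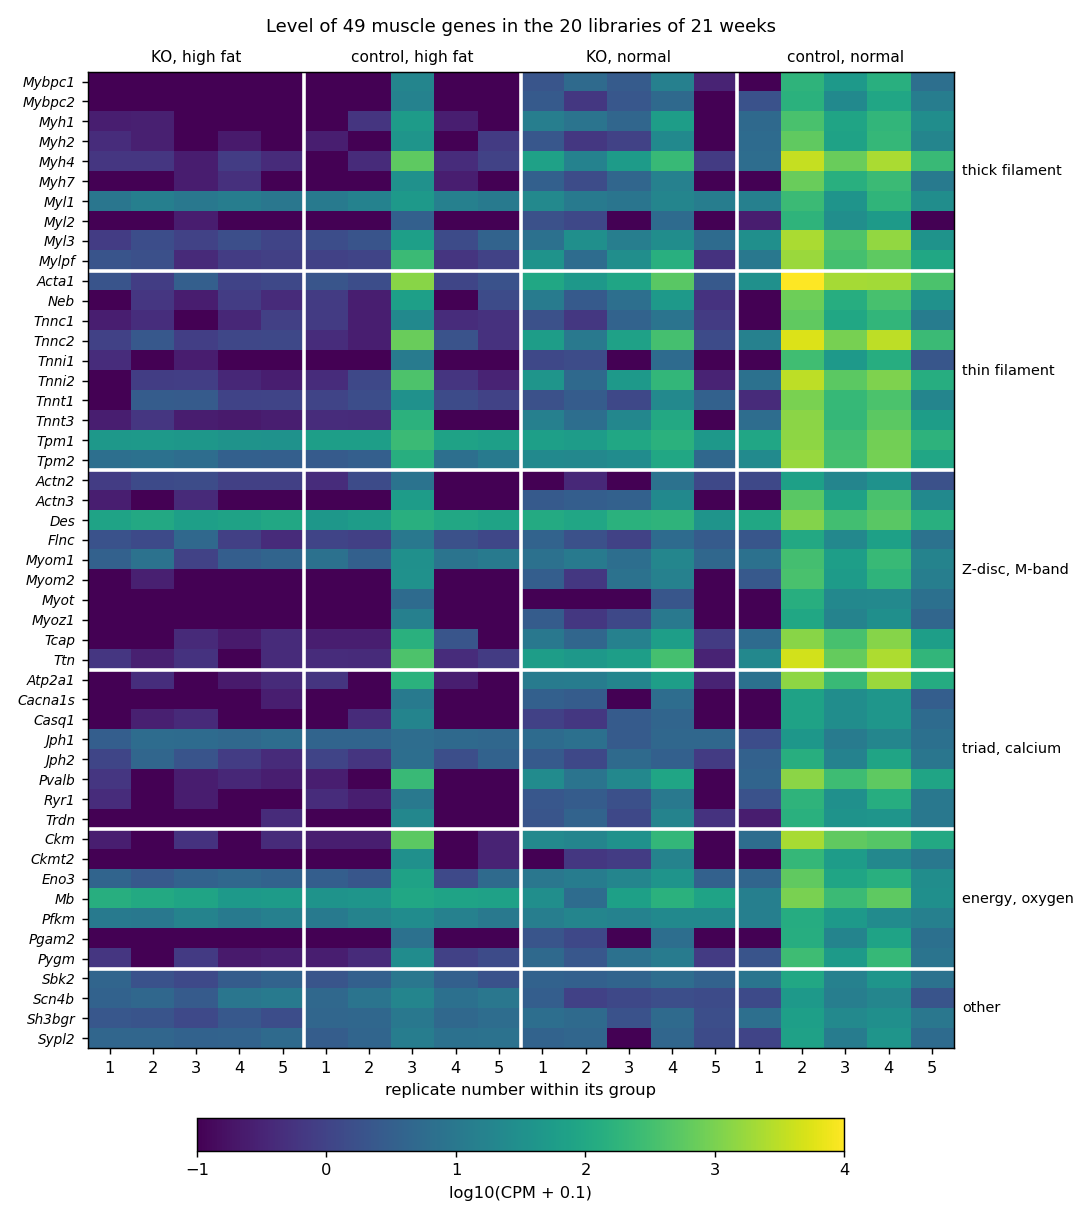
Heat map of log10(CPM + 0.1) for the 49 genes (rows, grouped by role) in the 20 libraries at 21 weeks (columns, grouped by genotype and diet). Control ND libraries 2, 3 and 4, control HFD library 3 and KO ND library 4 stand out as columns with counts on all 49 genes.

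Promoters are shown for the genes whose 250 bases before the start site hold a CArG box, the site bound by serum response factor, because these genes span the list from α-actin to the M-band and include the largest called fold change. RefSeq promoter entries (build GRCm38.p6) existed for 38 of the 50 genes, some of them with several entries, and 4 of the 38 genes (10.5%) held a CArG box on either strand in at least 1 entry, against 1.62% of 27025 mouse genes over windows of the same length. The sequences run 5′ to 3′ on the gene's strand, with the CArG box in capitals and, in Myh4, a MEF2 site in capitals as the more distant run of the pair.
Acta1 (skeletal α-actin, chr8:123894776-123895025, minus strand): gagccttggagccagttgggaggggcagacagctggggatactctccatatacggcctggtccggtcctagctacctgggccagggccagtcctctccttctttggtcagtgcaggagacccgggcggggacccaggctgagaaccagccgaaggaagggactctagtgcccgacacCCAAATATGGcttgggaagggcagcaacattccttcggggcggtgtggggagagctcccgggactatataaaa
Myh4 (fast IIb myosin heavy chain, chr11:67237562-67237811, plus strand): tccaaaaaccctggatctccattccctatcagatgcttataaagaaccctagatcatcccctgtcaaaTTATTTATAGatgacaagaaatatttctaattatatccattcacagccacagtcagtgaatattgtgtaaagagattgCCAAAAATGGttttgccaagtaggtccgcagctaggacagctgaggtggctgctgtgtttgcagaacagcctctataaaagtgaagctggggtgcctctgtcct
Myl3 (slow and ventricular myosin light chain, chr9:110763428-110763677, plus strand): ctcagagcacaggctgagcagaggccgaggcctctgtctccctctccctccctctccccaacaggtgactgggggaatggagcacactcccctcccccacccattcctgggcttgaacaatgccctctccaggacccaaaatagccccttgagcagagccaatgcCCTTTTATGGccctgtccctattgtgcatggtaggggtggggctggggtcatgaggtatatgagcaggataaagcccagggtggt
Myom1 (myomesin 1, chr17:71019307-71019556, plus strand): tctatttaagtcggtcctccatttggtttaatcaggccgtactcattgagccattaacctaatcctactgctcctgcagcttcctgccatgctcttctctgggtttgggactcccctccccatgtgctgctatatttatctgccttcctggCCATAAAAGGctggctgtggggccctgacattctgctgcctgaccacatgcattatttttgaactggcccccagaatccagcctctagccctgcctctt
The last base of the CArG box lay 64, 95, 76 and 90 bases before the start site in Acta1, Myh4, Myl3 and Myom1, in that order, and the MEF2 site of Myh4 ended 173 bases before it. A MEF2 site stood in at least 1 entry of 5 of the 38 genes (13.2%; Myh1, Myh4, Pgam2, Pvalb and Ttn), against 3.42% of all genes. The E-box CANNTG, the core of sites for MyoD-type factors, was in 32 of 38 genes (84.2%), against 69.3%, and TATAAA, searched on the gene's strand only, was in 4 of 38 (10.5%), against 8.94%. The other motifs were searched on both strands, and all are letter matches in a window, not measured binding sites.

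In the thick filament, Myh4, the heavy chain of fast IIb fibres, had 0.505, 0.522, 0.148, 0.662 and 0.317 CPM in KO HFD libraries 1 to 5, against 0, 0.32, 567, 0.328 and 0.855 CPM in control HFD libraries 1 to 5. It had 71.9, 16.4, 56.0, 238 and 0.653 CPM in KO ND libraries, against 6.10, 3615, 716, 2292 and 249 CPM in control ND libraries. Library 1 of the control ND group lay below 4 of the 5 KO ND libraries, and library 3 of the control HFD group stood alone in its group. Myh7, the heavy chain of slow fibres, had 0, 0, 0.148, 0.397 and 0 CPM in KO HFD libraries, against 0, 0, 33.1, 0.164 and 0 CPM in control HFD libraries. On normal diet Myh7 had 3.32, 1.37, 4.39, 15.7 and 0 CPM in KO libraries, against 0, 709.9, 144, 256 and 10.7 CPM in control libraries, with a library at 0 in each genotype. Myl3, the light chain of slow fibres and of the heart ventricle, had 0.673, 1.39, 0.89, 1.46 and 0.95 CPM in KO HFD libraries, against 1.45, 1.92, 66.1, 1.31 and 3.85 CPM in control HFD libraries. Its values were 7.19, 30.3, 13.4, 28.5 and 5.44 CPM in KO ND libraries, against 30.3, 2328, 419.6, 1520.3 and 37.2 CPM in control ND libraries, and the groups touched, with KO library 2 and control library 1 both at 30.3 CPM. Myl1, the light chain of fast fibres, kept 9.26 to 14.3 CPM in all 5 KO HFD libraries, against 11.1, 16.3, 50.5, 15.1 and 11.5 CPM in control HFD libraries. On normal diet Myl1 had 22.7, 10.9, 8.78, 18.4 and 12.8 CPM in KO libraries, against 15.2, 257, 39.1, 183 and 28.5 CPM in control libraries.

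In the thin filament, Acta1 had 1.85, 0.696, 3.11, 0.926 and 1.11 CPM in KO HFD libraries, against 1.94, 1.44, 1277, 0.985 and 1.71 CPM in control HFD libraries. On normal diet Acta1 had 97.0, 46.7, 86.9, 526 and 2.39 CPM in KO libraries, against 32.8, 14100, 2084, 2021 and 376 CPM in control libraries. The highest control library thus held 14100 CPM of this 1 transcript, and the lowest, 32.8 CPM, lay below 4 of the 5 KO libraries on the same diet. Tnnc2, the calcium sensor of fast troponin, had 61.1, 10.4, 73.1, 328 and 1.31 CPM in KO ND libraries, against 15.3, 5330, 944, 3194 and 257 CPM in control ND libraries, with control library 1 inside the range of the KO libraries. Tpm1, a tropomyosin that lies along the actin filament in striated, smooth and non-muscle cells, had 45.9, 48.4, 44.8, 36.8 and 35.2 CPM in KO HFD libraries, against 64.4, 63.6, 252, 74.9 and 65.4 CPM in control HFD libraries. Every KO HFD library lay below every control HFD library for this gene. On normal diet Tpm1 had 67.7, 58.2, 93.5, 154 and 47.2 CPM in KO libraries, against 91.5, 1438, 311, 845 and 173 CPM in control libraries, and KO libraries 3 and 4 lay above control library 1.

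At the Z-disc and M-band, Ttn, the giant spring protein titin, had 61.7, 46.7, 62.3, 333 and 0.218 CPM in KO ND libraries, against 21.9, 4529, 649, 2468 and 195 CPM in control ND libraries. It had at most 0.505 CPM in KO HFD libraries, against 0.323, 0.32, 396, 0.328 and 0.642 CPM in control HFD libraries. Myom1, which links myosin tails in the M-band, had 7.19, 10.9, 6.37, 19.9 and 4.57 CPM in KO ND libraries, against 7.19, 315, 63.0, 229 and 17.1 CPM in control ND libraries. Flnc, a filamin that ties actin to the Z-disc, had 3.87, 1.64, 0.878, 5.49 and 2.61 CPM in KO ND libraries, against 2.03, 102, 21.8, 69.2 and 7.71 CPM in control ND libraries. For both genes control ND library 1 lay inside the range of the KO ND libraries, as did library 5 for Myom1, and the other control ND libraries lay above it. Des had 111, 89.6, 157, 175 and 38.5 CPM in KO ND libraries, against 95.8, 1192, 310.0, 534 and 141 CPM in control ND libraries. It stayed at 67.3 to 105 CPM in KO HFD libraries, against 45.0, 57.5, 141, 99.0 and 80.6 CPM in control HFD libraries.

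At the triad, where the membrane system meets the calcium store, Jph2, a junctophilin that holds those membranes together, had 1.01, 4.35, 1.93, 0.662 and 0.317 CPM in KO HFD libraries, against 0.968, 0.48, 6.37, 1.48 and 3.64 CPM in control HFD libraries. On normal diet Jph2 had 2.49, 1.09, 5.27, 3.26 and 0.653 CPM in KO libraries, against 3.44, 137, 16.2, 81.7 and 8.88 CPM in control libraries, and KO library 3 lay above control library 1. Atp2a1, the calcium pump of fast fibres, had 11.9, 12.6, 18.7, 62.2 and 0.218 CPM in KO ND libraries, against 7.19, 1397, 249, 1798 and 119.6 CPM in control ND libraries. It had no more than 0.348 CPM in KO HFD libraries, against 0.484, 0, 156, 0.164 and 0 CPM in control HFD libraries. Ryr1, the calcium release channel, was 0 to 10.2 CPM in KO ND and 1.72 to 181 CPM in control ND libraries.

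Among the genes of energy and oxygen supply, Ckm, the muscle creatine kinase, had 0.168, 0, 0.445, 0 and 0.317 CPM in KO HFD libraries, against 0.161, 0.16, 561, 0 and 0.214 CPM in control HFD libraries. On normal diet Ckm had 22.7, 19.1, 34.5, 201 and 0 CPM in KO libraries, against 5.94, 2186, 609.7, 486 and 103 CPM in control libraries. Ckmt2, the mitochondrial creatine kinase, which brown adipocytes are also known to make, was at 0 in all KO HFD libraries, against 0, 0, 31.7, 0 and 0.214 CPM in control HFD libraries. Ckmt2 had 0, 0.546, 0.658, 17.1 and 0 CPM in KO ND libraries, against 0, 213, 56.7, 21.3 and 10.05 CPM in control ND libraries. Mb had 139, 107, 81.7, 47.8 and 56.2 CPM in KO HFD libraries, against 37.4, 40.7, 95.1, 78.0 and 71.0 CPM in control HFD libraries. Mb had 29.9, 5.74, 69.1, 154 and 80.3 CPM in KO ND libraries, against 14.5, 997, 258, 571 and 31.3 CPM in control ND libraries. For this gene KO HFD library 1 (139 CPM) exceeded control HFD library 3 (95.1 CPM), whose muscle shares were 0.0329% and 0.638%.

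The remaining genes are expressed in muscle with less specific roles. Sh3bgr, an SH3-binding protein of striated muscle, had 2.19, 1.91, 1.19, 2.25 and 1.43 CPM in KO HFD libraries, against 4.36, 4.48, 9.95, 4.76 and 5.99 CPM in control HFD libraries. On normal diet Sh3bgr had 6.36, 5.19, 1.76, 5.34 and 1.52 CPM in KO libraries, against 6.57, 66.7, 22.6, 31.3 and 9.35 CPM in control libraries. The genotypes did not overlap for Sh3bgr on either diet. On normal diet, however, KO library 1 (6.36 CPM) and control library 1 (6.57 CPM) differed by less than 1 count in that KO library is worth. Sbk2, a kinase gene, had 3.59, 3.28, 3.95, 5.94 and 3.70 CPM in KO ND libraries, against 8.76, 100.1, 15.9, 40.4 and 7.48 CPM in control ND libraries, again with no overlap. Scn4b, a sodium channel β subunit, had 3.04, 0.82, 1.10, 1.48 and 1.31 CPM in KO ND libraries, against 1.25, 49.8, 13.6, 19.6 and 1.87 CPM in control ND libraries. It had 2.67 to 11.4 CPM in KO HFD libraries, against 4.84, 8.33, 18.3, 6.90 and 9.62 CPM in control HFD libraries. Sypl2, a protein of the triad membranes, had 3.87, 4.37, 0, 4.30 and 1.31 CPM in KO ND libraries, against 0.938, 71.9, 12.6, 39.6 and 5.61 CPM in control ND libraries.

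**Figure D3:**
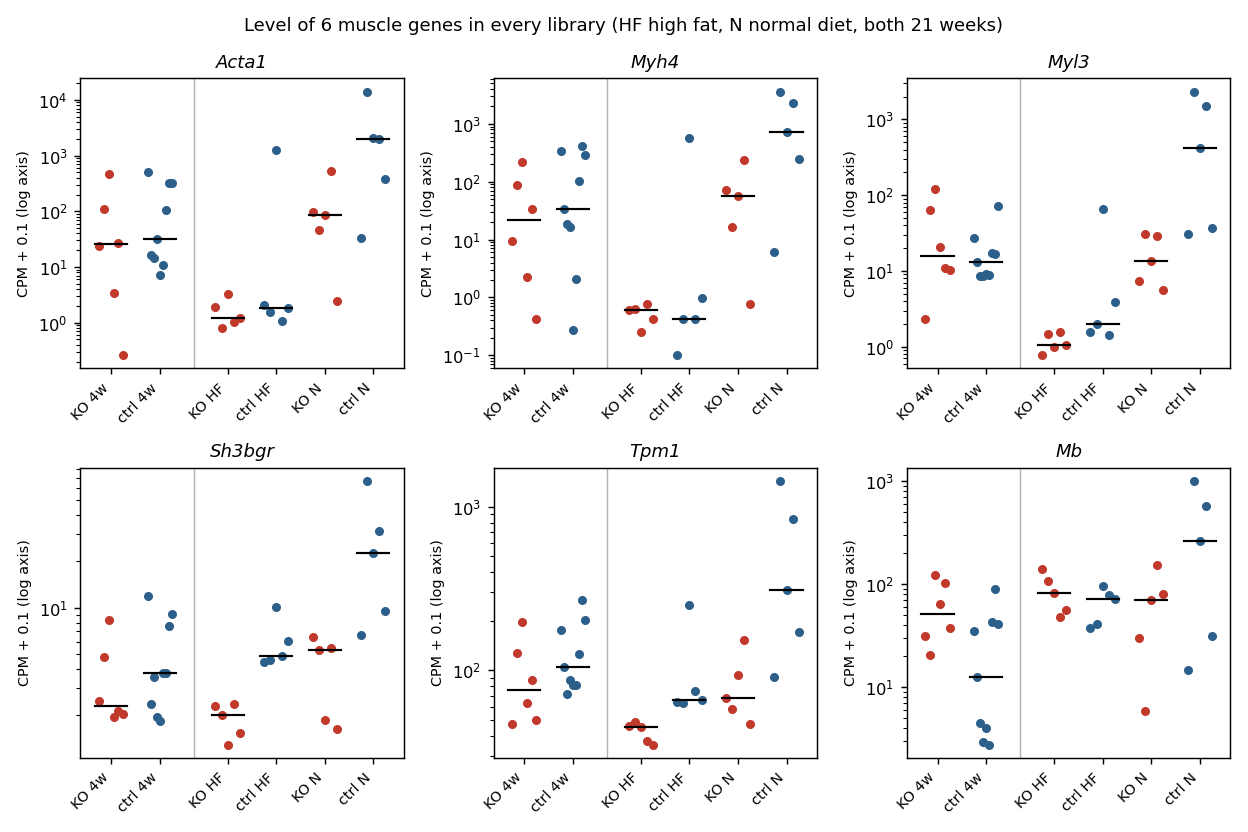
CPM of Acta1, Myh4, Myl3, Sh3bgr, Tpm1 and Mb in every library (y axis, CPM + 0.1, log scale; x axis, the 4-week and 21-week groups), with 1 point per library and a bar at the group median. Acta1 spans 0.696 to 14100 CPM over the 20 libraries at 21 weeks, whereas Tpm1 stays between 35.2 and 1438 CPM.

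On normal diet at 21 weeks, 10 of the 49 genes fell in KO against control libraries and none rose, by edgeR's quasi-likelihood test with Benjamini-Hochberg adjustment over all 12082 genes tested. Over all genes 2.65% were called in this comparison, 1.36% as lower. All 49 log2 fold changes were below 0, with a median of -4.00, against 0.02 over all genes, and 45 of the 49 had an unadjusted p below 0.05. Here and below, counts of muscle genes at an unadjusted p stand without the share of all genes at that threshold. The shares of all genes called refer to adjusted p, so the counts at an unadjusted p cannot be set against them. Sh3bgr fell by 2.75 on the log2 scale (SE 0.50, adjusted p = 0.00609), and Sbk2 fell by 3.05 (SE 0.62, adjusted p = 0.0138). Myl3 averaged 16.97 ± 11.8 CPM in KO and 867 ± 1019 CPM in control libraries (SD, n = 5 each) and had the largest called change, -5.69 (SE 1.36, adjusted p = 0.0387). Scn4b, Tpm1, Jph2, Myl1, Myom1, Sypl2 and Flnc were the other called genes, with log2 fold changes of -2.78 (Tpm1) to -4.24 (Jph2) and adjusted p-values of 0.0221 (Scn4b) to 0.0459 (Flnc). Myl3, Jph2, Flnc, Myom1, Scn4b, Sypl2 and Sbk2 were already known to differ in this comparison when the list was drawn up, so for them it is a description.

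Several abundant muscle transcripts had large fold changes that did not pass. Acta1 had a log2 fold change of -4.59 (SE 1.99, adjusted p = 0.206), Myh4 of -4.19 (SE 1.93, adjusted p = 0.229) and Ckm of -3.60 (SE 1.91, adjusted p = 0.297). Myh7 had -5.40 (SE 1.69, adjusted p = 0.0906) and Ckmt2 -3.87 (SE 1.90, adjusted p = 0.271). By role, 2 of 10 thick filament genes fell (median over the 10, -4.45), 1 of 10 thin filament genes (-4.28), 2 of 10 Z-disc and M-band genes (-3.88), 1 of 8 triad and calcium genes (-4.06), 0 of 7 energy and oxygen genes (-3.60) and 4 of the 4 others (-3.13). The roles cannot be compared by these counts, because most of the called genes were known to differ when the list was drawn up. Among the 4 others this holds for Scn4b, Sypl2 and Sbk2. Every KO library lay below every control library for Myl3, Sbk2 and Sh3bgr, 3 of 49 genes against 1.52% of all genes. For both Myl3 and Sh3bgr the gap was smaller in CPM than 1 count in the highest KO library is worth.

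The calls in this comparison turned on single libraries. Fits without 1 library called 2 to 20 of the 49 genes: 2 without control ND library 2, 3 without library 4, 15 without library 3, 16 without library 5 and 20 without library 1. Leaving out a KO ND library gave 4 (library 1), 2 (library 2), 3 (library 3), 3 (library 4) or 2 (library 5) calls, leaving out KO HFD library 1, 4 or 5 gave 6, and leaving out control HFD library 3 gave 20. Of all genes 1.03% to 7.23% were called in the 20 fits, with 3.05% without control ND library 1, 2.6% without control HFD library 3 and the highest share without control ND library 3. Sh3bgr and Sbk2 kept an adjusted p below 0.05 in 20 of 20 such fits, Scn4b in 15, Tpm1, Jph2 and Myl1 in 14 each, Myom1 in 10, Myl3 in 9 and Sypl2 in 4. With control ND libraries 2 and 4 both left out, a choice made after seeing the data, edgeR called 0 of the 49 genes (12 at an unadjusted p below 0.05), the median log2 fold change was -1.99 and all 49 stayed below 0. With only the ND libraries in the fit, 0 of 44 genes tested were called (39 at an unadjusted p below 0.05) and 0.466% of all genes. DESeq2 called 24 of 49, and 7.32% of all genes.

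**Figure D4:**
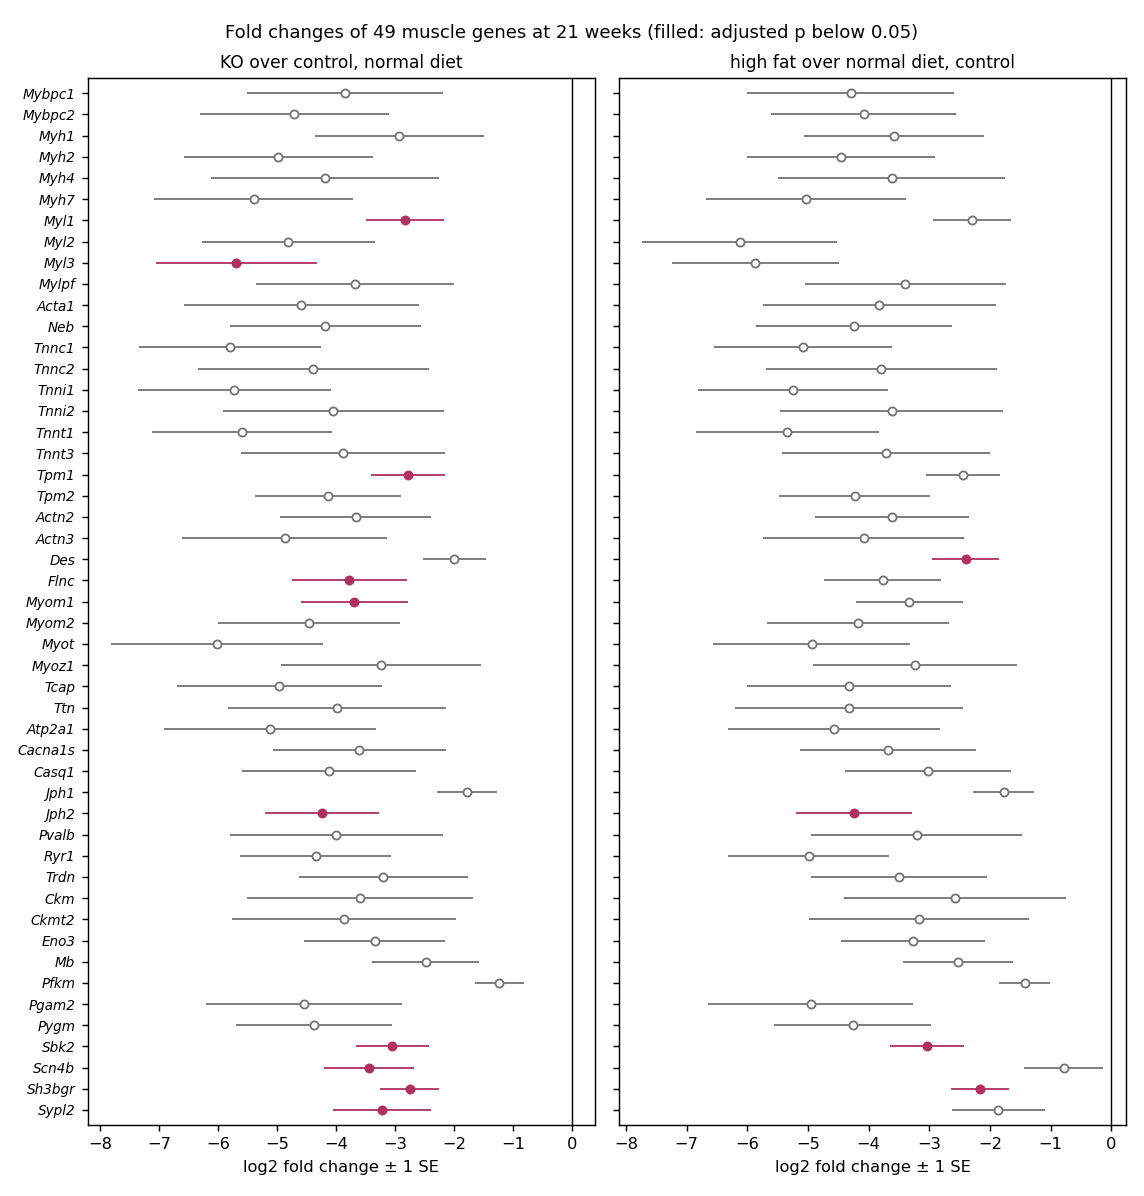
Log2 fold change ± 1 standard error (x axis) for the skeletal muscle genes at 21 weeks (rows), KO against control on normal diet and HFD against ND in control. All values lie below 0 in both panels, and the filled points, past an adjusted p of 0.05, are 10 genes for genotype and 4 for diet.

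On high fat diet, 0 of the 49 genes were called between KO and control libraries by edgeR (24 at an unadjusted p below 0.05), when edgeR called 0.116% of all genes. DESeq2 called 16 of the 49 as lower and 0.596% of all genes. Each of the 16 had its highest level among HFD libraries in control HFD library 3. Mybpc2, Mybpc1 and Myoz1 had 105, 119 and 97 counts there and none in any other HFD library. DESeq2 was not run without that library. The edgeR log2 fold change was below 0 for 46 genes and above 0 for 3, with a median of -5.11, against -0.01 over all genes. Acta1 had -7.21 (SE 2.37, adjusted p = 0.633), Myl3 had -3.65 (SE 1.44, adjusted p = 0.832), and Ckm, Myh4 and Myh7 had -8.94, -7.83 and -5.43 with adjusted p-values of 0.613, 0.633 and 0.962. Without control HFD library 3 the same fit gave 0.10 for Acta1, 0.51 for Ckm, 0.36 for Myh4, 1.19 for Myh7 and -0.86 for Myl3. Over the list that fit had 24 values above 0 and 20 below, with a median of 0.00 and 0 calls (1 at an unadjusted p below 0.05), so the median and the sign count of the full fit rested on that 1 library. Sh3bgr and Tpm1 were lower in every KO HFD library than in every control HFD library, 2 of 49 genes against 1.48% of all genes, and neither difference was called (Sh3bgr -1.61, adjusted p = 0.475; Tpm1 -1.20, adjusted p = 0.999).

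In control mice, 4 of the 49 genes fell in HFD against ND libraries at 21 weeks and none rose, by edgeR, against 0.795% of all genes called, 0.389% as lower. All 49 log2 fold changes were below 0 with a median of -3.71, against -0.00 over all genes. This comparison uses the same control ND libraries as the genotype comparison on normal diet. Sbk2 had 1.94, 3.36, 9.64, 3.28 and 1.71 CPM in control HFD libraries, against 8.76, 100.1, 15.9, 40.4 and 7.48 CPM in control ND libraries, and fell (log2 fold change -3.05, SE 0.61, adjusted p = 0.0236). Sh3bgr changed by -2.17 (SE 0.48, adjusted p = 0.0334), Jph2 by -4.24 (SE 0.95, adjusted p = 0.0454) and Des by -2.40 (SE 0.55, adjusted p = 0.0488). Myl3 missed the threshold at -5.87 (adjusted p = 0.0548), and Acta1 (-3.83, adjusted p = 0.338) and Myh7 (-5.03, adjusted p = 0.140) were further from it. Ckm (-2.58, adjusted p = 0.520), Myh4 (-3.62, adjusted p = 0.353) and Ckmt2 (-3.17, adjusted p = 0.417) did not pass either. The groups overlapped for all 49 genes; 0.695% of all genes had every HFD library below every ND library.

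Without control HFD library 3, 36 of the 49 genes were called lower in this diet comparison, among them Acta1, Myh4, Myl3, Ckm and Myh7, when 2.04% of all genes were called in either direction. Without control HFD library 1, 2 or 4, or without control ND library 2, 0 were called. The count was 1 (Sbk2) without control HFD library 5 or control ND library 4, 15 without control ND library 1 (1.67% of all genes), 8 without library 3 and 10 without library 5, and the share of all genes called ranged over 0.17% to 2.91% in the 20 fits. It was 2 (Sbk2 and Sh3bgr) without any 1 of KO ND libraries 1, 2 and 4 or KO HFD libraries 1, 3, 4 and 5, which share the fit but are in neither group compared. With control ND libraries 2 and 4 left out, 0 were called (8 at an unadjusted p below 0.05), with a median of -1.83 and 47 values below 0. DESeq2 called 18, and 4.15% of all genes.

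In KO mice, edgeR called 0 of 49 genes between HFD and ND libraries (21 at an unadjusted p below 0.05; 0.372% of all genes called), and DESeq2 called 17 and 1.37% of all genes. The log2 fold change was below 0 for 45 genes, with a median of -4.97, against -0.03 over all genes. Acta1 had -6.45 (SE 2.31, adjusted p = 0.338), Ckm -7.92 and Myh4 -7.26, with adjusted p-values of 0.342 and 0.327. Myh7 had -5.06 (adjusted p = 0.597) and Myl3 -3.82 (adjusted p = 0.381). Mybpc1, Myl3, Pygm, Tcap and Trdn were lower in CPM in every KO HFD library than in every KO ND library, 5 of 49 genes against 3.27% of all genes. For Mybpc1, Pygm, Tcap and Trdn this rested on very few counts. KO ND library 5, the lowest of its group, had 1, 3, 3 and 2 counts of them, against at most 0, 4, 2 and 2 in a KO HFD library. Fitted on these groups alone, Myl3 (-3.83, adjusted p = 0.00135) and Eno3, the muscle enolase (-2.06, adjusted p = 0.0457), fell and Scn4b rose (2.14, adjusted p = 0.0376), when 1.3% of all genes were called. Scn4b had 3.70, 4.52, 2.67, 9.26 and 11.4 CPM in KO HFD libraries, against 3.04, 0.82, 1.10, 1.48 and 1.31 CPM in KO ND libraries, with KO HFD library 3 below KO ND library 1.

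The genotype difference was not shown to depend on diet. The interaction of genotype and diet had 0 of the 49 genes and 0.0% of all genes called by edgeR (9 of the 49 at an unadjusted p below 0.05). DESeq2 called 0.0993% of all genes, among them Mybpc1, Mybpc2, Myoz1 and Ckmt2, which were all at 0 in KO HFD libraries, so their fitted interaction sizes are not bounds. Of the 49 interaction terms 24 lay above 0 and 25 below, with a median of -0.03. The term was -2.62 (SE 2.69) for Acta1, -5.34 (SE 3.46) for Ckm, -3.64 (SE 3.04) for Myh4, -0.03 for Myh7 and 2.05 (SE 1.92) for Myl3, with adjusted p-values of 0.850 (Ckm) to 0.996 (Myh7). No SE is given for Myh7, because an SE taken from the fold change and F is not reliable for so small a term. The Myh7 term was not precise, and ranged over -1.19 to 6.59 in fits with a single library left out. Without control HFD library 3, all 49 lay above 0 with a median of 4.10 and 0 calls (18 at an unadjusted p below 0.05).

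At 4 weeks, edgeR with genotype and labelled sex in the model called 0 of the 35 genes between KO and control libraries (1 at an unadjusted p below 0.05), when 0.734% of all genes were called, and DESeq2 called 0 of the 35 and 2.95% of all genes. The log2 fold change was above 0 for 5 genes and below 0 for 30, with a median of -0.60, against -0.01 over all genes. Acta1 had a lowest, median and highest level of 0.161, 25.3 and 477 CPM in the 6 KO libraries, against 7.05, 32.1 and 513 CPM in the 9 control libraries (log2 fold change -0.59, SE 1.48, adjusted p = 0.882). Myh4 had 0.323, 21.5 and 217 CPM in KO, against 0.172, 33.2 and 407 CPM in control libraries (-1.49, SE 1.49, adjusted p = 0.667). For Acta1, KO libraries 4 (3.33 CPM) and 6 (0.161 CPM) lay below the lowest control library, and for Myh4 all KO libraries lay within the control range. Ckm had a log2 fold change of -1.09 (SE 1.53, adjusted p = 0.774). Myl3 had 2.24, 15.7 and 121 CPM in KO, against 8.46, 13.0 and 71.8 CPM in control libraries (0.52, SE 0.82, adjusted p = 0.801), and Mb had 20.6, 50.8 and 121 CPM in KO, against 2.68, 12.5 and 88.7 CPM in control libraries (1.22, adjusted p = 0.420).

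No gene of the list separated the genotypes at 4 weeks (0 of 35, against 0.536% of all genes with every KO library lower and 0.132% with every KO library higher). Within columns 1 to 6 the median of the 35 log2 fold changes was -0.15 (16 above and 19 below 0), and within columns 7 to 15 it was -0.46 (5 above and 30 below 0), with 0 calls in each. The median was -0.27 without control library 8, -0.28 without control library 1 and -1.21 without KO library 3. The 3 slow-fibre genes counted at this age, Myl3, Tnnc1 and Tnnt1, had values above 0 (median 1.10) and the 10 fast-fibre genes had values below 0 (median -0.80), and none was called.

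Between libraries labelled female and male at 4 weeks, 2 of the 35 genes were called, both higher in female, where 34.2% of all genes were called and 17.5% as higher. Jph2 had a log2 fold change of 2.83 (SE 0.55, adjusted p = 0.00151) and Des of 1.73 (SE 0.44, adjusted p = 0.00884). By sheet position, Jph2 was 5.16 to 40.1 CPM in columns 7 to 15 and 1.12 to 6.79 CPM in columns 1 to 6, and Des was 71.1 to 370 CPM in columns 7 to 15 and 30.5 to 56.4 CPM in columns 1 to 6. With the column set beside sex in the model neither was called (Jph2 2.14, adjusted p = 0.998; Des -0.20, adjusted p = 0.998), nor was any of all genes tested (328 at an unadjusted p below 0.05), so sex and column set cannot be told apart here. The log2 fold change was above 0 for 33 of the 35 genes with a median of 0.81, against -0.01 over all genes. Without control library 1, the labelled male with the most muscle counts, the median was 2.29 and 6 genes were called (Jph2, Sypl2, Des, Myom1, Tcap and Mb), all higher, when 31.1% of all genes were called. DESeq2 called Jph2, Des and Myom1, and 35.7% of all genes. The shares of muscle genes called lay below those over all genes in each of these fits. Acta1 (0.56, adjusted p = 0.807), Ckm (0.78, adjusted p = 0.738), Myh4 (1.29, adjusted p = 0.557) and Myl3 (1.48, adjusted p = 0.227) were not called by edgeR.

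Fibre type was described as the share of fast-fibre counts among the counts of 13 fast and 6 slow genes (10 and 3 of them counted at 4 weeks). In the libraries with the most muscle counts the share rested on many counts and still differed beyond counting error. It was 79.7% (95% exact binomial interval 79.44% to 79.96%) in control ND library 2, 78.9% (78.5% to 79.3%) in library 3, 81.4% (81.0% to 81.8%) in library 4 and 93.2% (92.5% to 93.9%) in library 5. In the other libraries with many muscle counts it was 93.8% (93.3% to 94.3%) in KO ND library 4 and 94.1% (93.7% to 94.4%) in control HFD library 3. Over the groups the values were 94.9%, 70.3%, 92.7%, 93.8% and 62.1% in KO ND libraries 1 to 5, against 73.0%, 79.7%, 78.9%, 81.4% and 93.2% in control ND libraries 1 to 5, with wide overlap. At 4 weeks they were 90.8%, 85.1%, 87.8%, 66.7%, 91.2% and 67.1% in KO libraries 1 to 6 and 86.3% to 98.9% in the 9 control libraries. Intervals cover counting error only.

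Fast shares moved when Myl1 and Myl3 were left out, a choice made after seeing the data, in libraries with few muscle counts and also in control ND libraries with many. Without both genes the share was 91.6% in KO ND library 2 and 40.6% in KO ND library 5, and 99.3% in control ND library 1. The 2 lowest KO libraries at 4 weeks moved apart, library 4 from 66.7% to 89.3% and library 6 from 67.1% to 48.6% (17 fast and 18 slow counts left). Shares at that age then ran over 48.6% to 95.4% in KO and 63.75% to 99.8% in control libraries. The order among the high control ND libraries stayed, but their shares rose. They went from 79.7% to 87.7% in library 2, from 78.9% to 86.8% in library 3, from 81.4% to 91.5% in library 4 and from 93.2% to 96.1% in library 5.

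Heavy chains are described in libraries with at least 100 heavy chain counts. Myh4 held most of them in all of these but control ND library 1, at 79.0%, 85.3% and 70.3% in KO ND libraries 1, 3 and 4, against 68.3%, 70.3%, 77.6% and 81.3% in control ND libraries 2 to 5, and 81.6% in control HFD library 3. Myh7 held 3.65%, 6.69% and 4.65% in those KO ND libraries, against 13.4%, 14.1%, 8.68% and 3.50% in control ND libraries 2 to 5, and 4.77% in control HFD library 3. Control ND library 1, with 106 heavy chain counts, had 36.8% Myh4, 33.0% Myh2 (the IIa chain), 30.2% Myh1 (the IIx chain) and 0 counts of Myh7, although its fast share over all fibre genes, 73.0%, was the lowest of its group. Myh1, Myh2 and Myh4 are near-identical neighbours on chromosome 11, so how the counting divided shared reads among them is uncertain.

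**Figure D5:**
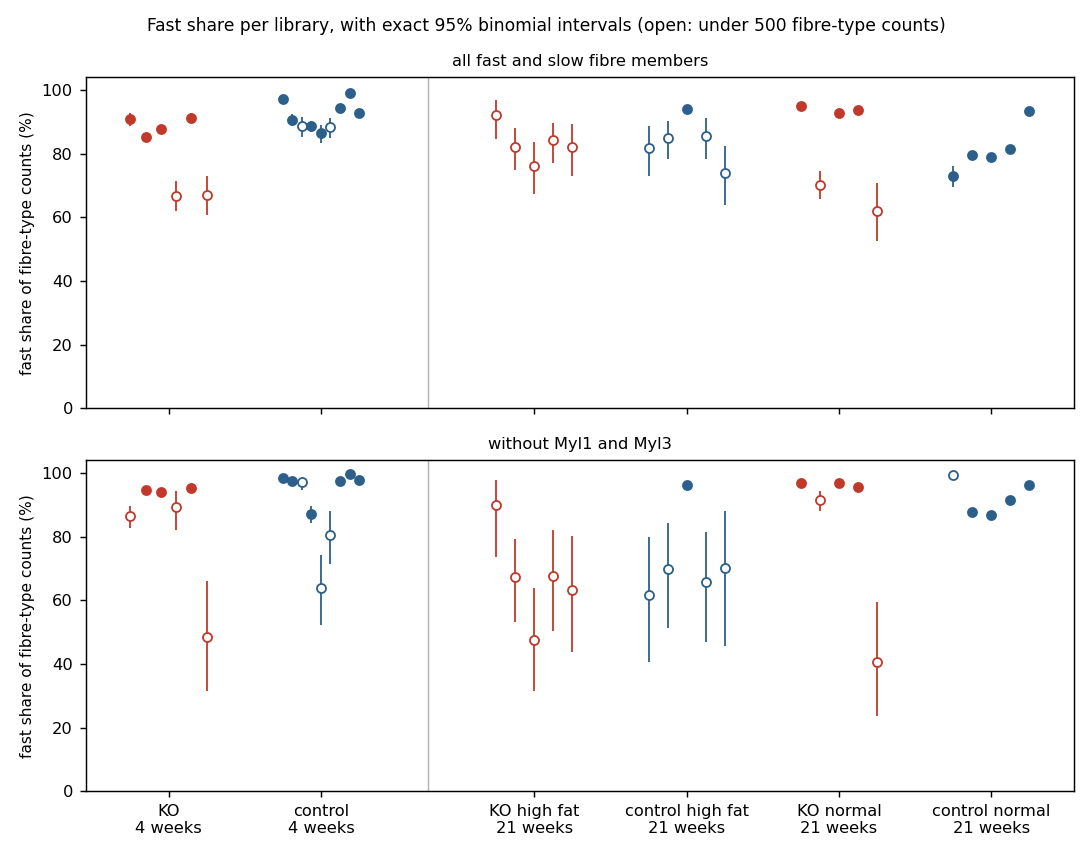
Fast-fibre share of fibre-type counts (y axis, percent) in every library with all fibre genes (upper panel) and without Myl1 and Myl3 (lower panel), with exact 95% binomial intervals as bars and open points for libraries under 500 such counts. Intervals are narrow in libraries with many muscle counts (79.44% to 79.96% in control ND library 2) and wide in those with few (52.6% to 70.9% in KO ND library 5).

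The makeup of the muscle signal also differed among control ND libraries with many counts. Atp2a1 per count of Acta1 was 0.89 in library 4, against 0.0991 in library 2, 0.119 in library 3 and 0.318 in library 5. It was 0.122 in control HFD library 3 and 0.118 in KO ND library 4. Ttn per Acta1 was 1.22 in control ND library 4, against 0.321, 0.311 and 0.519 in libraries 2, 3 and 5, and Tnnc2 per Acta1 was 1.58, against 0.378, 0.453 and 0.683. Myl3 per Acta1 was 0.752 in control ND library 4 and 0.924 in library 1, against 0.165, 0.201 and 0.0988 in libraries 2, 3 and 5. Library 4 was also the shallowest of the 20 (2398807 counts). Acta1, Atp2a1, Cacna1s, Des, Jph1, Mb, Mybpc2, Myh1, Myh2, Myh7, Myl2, Myom1, Sbk2, Tnnc1 and Tnnc2 have another annotated gene over their 3′ end, and since the strand setting of the counting was not given, reads of the partner cannot be told apart from theirs.

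Genes outside the list were tested in the same fits. Of 52 further skeletal muscle genes, 38 were tested at 21 weeks; on normal diet 37 had a log2 fold change below 0 in KO against control (median -3.58), and 3 fell: Casq2, the slow-fibre and cardiac calcium store protein (-3.68, SE 0.84, adjusted p = 0.0226), Srl, sarcalumenin (-2.34, SE 0.53, adjusted p = 0.0286), and Phka1, the muscle subunit of phosphorylase kinase (-1.24, SE 0.31, adjusted p = 0.0309). Their summed level was 322 to 707 CPM in KO ND libraries, against 283 to 6103 CPM in control ND libraries. Of the myogenic regulators 3 of 12 were tested, and Mef2c fell (-1.91, adjusted p = 0.0232). Of 9 smooth muscle genes 8 were tested, 7 of them below 0, and Synpo2 fell (-2.89, adjusted p = 0.0320). All 6 brown adipocyte genes were tested and 0 were called (3 above and 3 below 0); their summed level was 9073 to 13540 CPM in KO ND and 9134 to 16676 CPM in control ND libraries. All 6 general adipocyte genes (Adipoq, Fabp4, Lipe, Lpl, Plin1 and Pnpla2) were tested and 0 were called (4 above and 2 below 0). Their summed level was 21799 to 33430 CPM (mean 28369 ± 4491) in KO ND libraries, against 8538 to 30670 CPM (mean 17258 ± 8143) in control ND libraries (SD, n = 5 each). Control ND library 4, with 2.47% of its counts on muscle genes, had the lowest such level of the 20 libraries, whereas library 3, with 1.03%, had the highest of its group; the part of this in the genotype comparison was not tested. Mitochondrially encoded transcripts held 11.9% of counts in control ND library 2 and 12.1% in library 4, the lowest of the 20 libraries (up to 26.0%), and their part in it was not tested either. For diet in control, Casq2 (-3.69, adjusted p = 0.0334), Mef2c (-2.03, adjusted p = 0.0334) and Phka1 (-1.25, adjusted p = 0.0478) fell, and S100b of the Schwann cell list (1.41, adjusted p = 0.0236) and Ryr2, the cardiac calcium release channel (3.21, adjusted p = 0.0454), rose. Neither list rose as a whole. Of 5 Schwann cell genes tested, 2 lay above and 3 below 0 (median -0.22), and of 2 cardiac genes tested, 1 lay above and 1 below 0. Elovl3, a fatty acid elongase of brown adipocytes, rose in KO against control libraries at 4 weeks (1.88, adjusted p = 0.0184) and in HFD against ND libraries of KO mice (1.36, adjusted p = 0.0122). For labelled sex 21 genes of the other lists were called, with the smallest adjusted p for Plin1 (1.22, adjusted p = 0.000304), Hba-a1 (-1.29, adjusted p = 0.000448) and Cidea (1.16, adjusted p = 0.000680).

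In the authors' deposited table of KO over control at 4 weeks, 0 of the 35 genes had an adjusted p below 0.05, against 4.3% of 10731 genes. In the authors' deposited table for the 21-week experiment, which names neither libraries nor diets, 2 of the 49 genes passed, against 3.52% of 13251 rows: Sh3bgr (log2 fold change -3.62, adjusted p = 0.00195) and Tpm1 (-3.00, adjusted p = 0.0212). All 49 values in the authors' deposited table were below 0, with a median of -4.18, against 0.14 over all rows.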

How the data were processed

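Per the submitters' processing notes, reads were aligned with STAR 2.5.3a to mm10 (GRCm38), counted with featureCounts and compared with limma; for annotation, strand setting and filters nothing was given in the sources used here. Deposited by the authors were 1 sheet of raw counts per gene for each experiment and 1 table each of the authors' own KO over control log2 fold changes and p-values, which were copied as given. Of the 21-week sheet, 18 rows with dates for names (0.09% of counts) were left out.

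From the deposited counts, CPM was computed on library totals. Genes were tested on the counts with edgeR 4.0.16 in R 4.3.3: TMM scaling, filterByExpr (minimum count 10), glmQLFit and glmQLFTest, Benjamini-Hochberg adjustment over all genes tested (10633 at 4 weeks, 12082 at 21 weeks) and a threshold of 0.05. The 4-week model held genotype and labelled sex, and the 21-week model the 4 group means. Standard errors are the fold change over the root of F and are not reliable for very small fold changes. All 35 and 49 skeletal muscle genes passed the filter, in a pooled design where their high libraries could carry them past it. The fits were tested on simulated data in which every gene had the same modest spread. The muscle genes differed far more between libraries of a group, so that test does not cover them. Libraries within a group differed beyond counting noise (lowest chi-square per gene 5.19), so each was counted as a sample.

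The genes, role lists and fibre lists were chosen with earlier results of these data known. Fold changes with tests are given for Acta1, Ckm, Myh4, Myh7, Myl3 and Ckmt2 in every comparison where no group is all 0, for up to 8 further called genes with the smallest adjusted p, and for the called genes of other lists (for sex, the 3 with the smallest adjusted p); Flnc, Scn4b and Eno3, and the tests of Mb at 4 weeks and of Sh3bgr and Tpm1 on high fat diet, were added after their values were seen. Alternatives were DESeq2 1.42.0, RLE or plain totals as scaling, no filter, fits on the groups compared only, a replicate block, other sex and column-set terms, and each library left out. Exact binomial intervals have 95% coverage. Promoters are RefSeq's (GRCm38.p6).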

Additional observations from a re-analysis of the deposited data

Results flagged for a closer look

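In 43 sets of values (the muscle share, the fast-fibre share, and Acta1, Ckm, Myh4, Myl3, Myh7 and Ckmt2 where counted and not all 0, each within a group of 5, 6 or 9 libraries), the highest or lowest library was set against Dixon's 95% critical value. Chance passes that value in about 1 of 20 groups if the values are normally distributed and the sets independent. Of the 43, 19 passed, each through a high library and none in the fast-fibre share. The muscle share and CPM values were skewed towards high libraries, and the genes were high in the same libraries. The 19 of 43 therefore cannot be read as an excess over that rate. Control HFD library 3 stood apart from the other 4 of its group in muscle share (0.638%), Acta1 (1277 CPM), Ckm (561 CPM), Myh4 (567 CPM), Myh7 (33.1 CPM), Myl3 (66.1 CPM) and Ckmt2 (31.7 CPM). KO ND library 4 did so in muscle share (0.337%), Acta1 (526 CPM), Ckm (201 CPM), Myh7 (15.7 CPM) and Ckmt2 (17.1 CPM). Control ND library 2 did so in Acta1 (14100 CPM), Ckm (2186 CPM) and Ckmt2 (213 CPM), but not in Myh4, Myh7, Myl3 or muscle share, where control ND library 4 lay nearer to it. At 4 weeks KO library 3 did so in muscle share (0.362%), Acta1 (477 CPM) and Ckm (144 CPM), and control library 9 in Myl3 (71.8 CPM), although control libraries 1 and 8 had larger muscle shares.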

How the results depend on the processing

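Every count of called genes and every sign below refers to the settings named. DESeq2 called more genes than edgeR at 21 weeks: 24 for KO against control on normal diet, 16 on high fat diet, 18 for diet in control, 17 for diet in KO and 4 for the interaction. Diet in control gave 2 calls with plain totals and 2 with no filter. Fits on the groups compared only gave 0 calls for genotype on normal diet, 0 for diet in control and 3 for diet in KO. Leaving out control ND libraries 2 and 4 gave 0 calls for genotype on normal diet and 0 for diet in control, and turned the Myl3 interaction to -0.38. Beside labelled sex, the column set left 0 calls and turned Des to -0.20.

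Replicate numbers did not pair the libraries: same-numbered libraries had correlations of -0.63 to 0.63 over 6 pairs at 4 weeks (2 above 0.1) and -0.54 to 0.36 over 30 pairs at 21 weeks (9 above 0.1). With the replicate block the calls were 2 for genotype on normal diet, 0 for diet in control and 0 for sex. The block turned Ckm to 0.58 and Myh4 to 0.40 for genotype at 4 weeks, Acta1 to -3.93, Ckm to -1.64, Myh4 to -0.73 and Myl3 to -0.88 for sex, and Acta1 to 0.12 and Myh7 to 0.0447 in the interaction, where RLE scaling gave Myh7 0.0497.

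With 1 library left out, called genes ranged over 2 to 20 for genotype on normal diet, 0 to 36 for diet in control and 2 to 6 for sex, and stayed at 0 for genotype at 4 weeks and on high fat diet, diet in KO and the interaction. Fold changes that changed sign ranged over -0.22 to 1.24 (Myl3, genotype at 4 weeks); -7.63 to 0.10 (Acta1), -9.51 to 0.51 (Ckm), -8.15 to 0.36 (Myh4) and -6.64 to 1.19 (Myh7) for genotype on high fat diet; and -4.23 to 4.68 (Acta1), -6.42 to 4.10 (Ckm), -4.30 to 4.54 (Myh4) and -1.19 to 6.59 (Myh7) in the interaction. Mean muscle shares ranged over 0.0652% to 0.132% (KO, 4 weeks), 0.118% to 0.163% (control, 4 weeks), 0.0272% to 0.02997% (KO HFD), 0.0277% to 0.182% (control HFD), 0.0635% to 0.142% (KO ND) and 0.953% to 2.36% (control ND). Mean fast shares ranged over 79.5% to 84.4%, 90.8% to 92.4%, 81.1% to 85.1%, 81.6% to 86.6%, 79.7% to 87.9% and 78.3% to 83.3% in the same groups. The causes were not tested.

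Without the 6 genes listed as also made outside skeletal muscle (Ckmt2, Des, Flnc, Tpm1, Tpm2 and Pfkm), the KO HFD mean share was 0.0138%. Mb is not one of the 6 and stayed in that share, at 47.8 to 139 CPM in KO HFD libraries. Without Myl1 and Myl3 the mean fast share was 67.1% in KO HFD, 72.6% in control HFD and 92.3% in control ND libraries, and with heavy chains alone it was 92.1% in control ND libraries. Plain totals moved the median of all genes to -0.16 for genotype at 4 weeks, diet in KO and the interaction. Of the named genes' fold changes under all settings with no single library left out, 287 of 352 kept their sign and side of the threshold, 44 lost the threshold, 10 gained it and 11 changed sign. Depth limits the fast shares in libraries with few muscle counts and the genes at 0.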
